A study of Mus musculus with 6 samples.

Results

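Potassium channel genes were compared between long-term EMT cells and control cells of the EpRas line. The 86 genes were all those whose single gene symbol on the array begins with Kcn, followed by lower case letters and a digit. They were taken out of 18820 genes with a probe set of their own. This symbol rule used no expression value, but the family was chosen with earlier results of these data known. The 86 genes were measured by 88 probe sets. Where a gene had several, the one with the largest mean of the 6 arrays was taken. The line was made from EpH4, a mouse mammary epithelial line of BALB/c background, by stable overexpression of the Ha-Ras oncogene, which both groups therefore carry. Long-term EMT cells (3 arrays) had received TGF-β1 at 2 ng/ml over 14 days, and control cells (3 arrays) had been left untreated over the same 14 days. Each sample was a well of the same cell line and was hybridized to an Affymetrix MoGene-1_1-st-v1 array of its own, and the values are log2 RMA values, so that a difference of 1 is a doubling. All results are of this single line.

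Potassium channels let potassium ions cross the membrane and thereby set the resting membrane potential, and in secretory epithelia they carry the potassium that has to be recycled while chloride and fluid are moved. The family falls into voltage-gated (Kv) subunits, which open on depolarization, modifier Kv subunits that are silent on their own, calcium- or sodium-activated channels, inward rectifiers (Kir), and the K2P channels, each subunit of which holds a pair of pore domains and which conduct at rest. Auxiliary subunits form no pore and change the gating or the membrane traffic of the others.

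The background level was 4.48, the 95th percentile of the means of 1006 probe sets for olfactory receptors, which stand for genes that are silent outside a few tissues. The arrays had lower quartiles between 4.01 and 4.06 and upper quartiles between 8.46 and 8.49. Control replicate 1 stood apart, correlating with the other control arrays at 0.984 to 0.987 across probe sets, against 0.995 between those, and for the members it moved most that are named here, values are given with and without it. Of 10 mammary epithelial markers, all had means above the background level in both groups and 5 fell. Of those that fell, *Cdh1* (E-cadherin) and *Cldn7* passed whichever array was left out. *Cdh1* was at 4.78, 4.31 and 4.34 in long-term EMT arrays, so that its mean there was barely above that level. *Elf5* and *Krt5* lay near it in both groups, with means of 4.61 to 4.75. *Krt8* and *Krt18* lay between 12.46 and 12.88 on all 6 arrays. The mean log2 value over these 10 markers was 6.92 to 7.14 in long-term EMT arrays and 8.45 to 9.02 in control arrays, so that the falls described here came with a fall of epithelial markers, and the part of either in the other was not tested. Markers of macrophages, endothelial cells and muscle lay above the background level in both groups for 3 of 6 genes each, and the neuron markers for 3 of 5, with *Map2* lower and *Cdh5* higher in long-term EMT cells as the calls among these. Each of these 2 calls held in 2 of the 6 fits with 1 array left out, *Map2* without control replicate 1 or 3 and *Cdh5* without long-term EMT replicate 3 or control replicate 1, with limma adjusted p up to 0.154 and 0.118 in the others. Of 7 fibroblast markers 6 lay above it in a group and none passed, with 1 higher and 2 lower by unadjusted p and fold. In RNA of whole cultures, fewer cells of a kind and less RNA per cell cannot be told apart.

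In long-term EMT cells 42 of the 86 potassium channel genes (48.8%) had a mean above the background level, and 39 (45.3%) did in control cells, against 70.1% and 69.7% of all 18820 genes read in the same way. Above it in both groups were 38 genes, and 43 were above it in neither. *Kcnj2* exceeded it in control cells only. The 4 genes that exceeded it in long-term EMT cells only, *Kcna7*, *Kcnh8*, *Kcnj4* and *Kcnk9*, were at most 4.61 there and at least 4.42 in control cells, so that they lay near it in both groups. The highest means over the 6 arrays were those of *Kcnn4*, *Kcnab1* and *Kcnk1*, the last through control cells, since its mean was 5.37 in long-term EMT cells. This does not rank their transcripts, since probe sets differ in brightness.

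**Figure D1:**
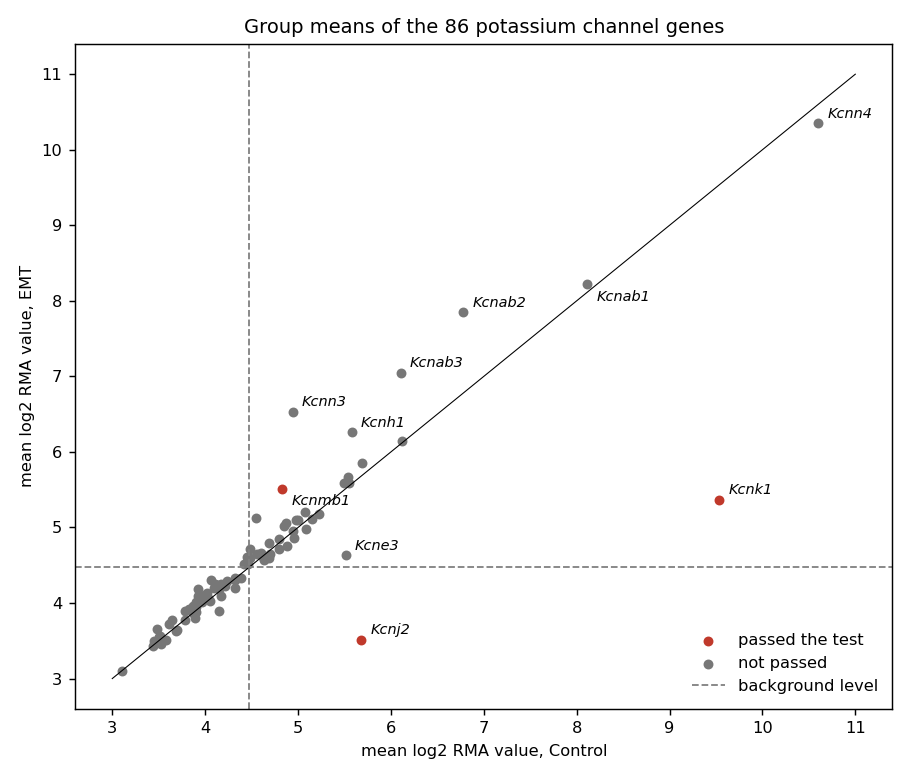
Mean log2 RMA value of each of the 86 potassium channel genes in long-term EMT cells (vertical axis, n = 3) and in control cells (horizontal axis, n = 3), with the line of equal values (solid) and the background level of 4.48 (dashed). Most genes lie on the line near or below the background level, while *Kcnk1* and *Kcnj2* lie far below the line of equal values.

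Compared with limma over all 35556 probe sets, 1 potassium channel gene rose (*Kcnmb1*) and 2 fell (*Kcnk1* and *Kcnj2*) in long-term EMT cells, and 83 did not pass. A gene passed when its adjusted p was below 0.05 and its fold exceeded 1.5. The shares, 1.16% higher and 2.33% lower, are close to those of all genes, 1.47% higher and 1.49% lower, or 0.993% and 0.928% of all probe sets, so that the counts do not set the family apart. With the same fold and an unadjusted p below 0.05, 5 genes were higher and 2 lower, 5.81% and 2.33%, against 2.88% and 3.71% of all genes (2.21% and 2.57% of all probe sets). All long-term EMT arrays lay above all control arrays for 9 members (10.5%) and below them for 2 (2.33%), where all genes gave 12.6% and 11.5% (10.5% and 8.68% of all probe sets). The median log2 fold change was 0.05 over the 86 genes and 0.02 over all genes. A change of less than 0.5 in either direction was seen in 77 of the 86, and in 17031 of all 18820 genes, a similar share.

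*Kcnk1* was the potassium channel gene with the largest difference. It encodes a K2P channel that is found in many epithelia and largely in membranes inside the cell. Its log2 values were 5.62, 5.35 and 5.14 in long-term EMT arrays, against 9.96, 9.43 and 9.22 in control arrays. The groups were far apart, and long-term EMT cells were still above the background level. The mean was 5.37 ± 0.24 in long-term EMT cells and 9.54 ± 0.38 in control cells (SD, n = 3 each), which is 17.96-fold lower in long-term EMT cells (limma log2 fold change -4.17 with standard error 0.22, 95% interval -4.69 to -3.64, adjusted p = 0.00144). Leaving out control replicate 1, the highest of the controls, gave a log2 fold change of -3.96, and *Kcnk1* passed whichever array was left out.

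*Kcnj2* encodes an inward rectifier that holds the membrane near the potassium equilibrium potential. It had values of 3.69, 3.51 and 3.34 in long-term EMT arrays, against 5.72, 5.71 and 5.62 in control arrays. All long-term EMT arrays lay below the background level and all control arrays above it. The limma log2 fold change was -2.17 with a standard error of 0.11 (adjusted p = 0.00134), and since long-term EMT cells were below the background level this is reported as at least 2.31-fold lower, the mean of the control cells against the background level. *Kcnj2* passed whichever array was left out, with log2 fold changes from -2.26 to -2.08.

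*Kcnmb1* encodes the beta subunit of the large-conductance calcium-activated channel that is best known from smooth muscle, where it raises the calcium sensitivity of the pore. It had values of 5.61, 5.59 and 5.32 in long-term EMT arrays, against 4.97, 4.78 and 4.74 in control arrays. The groups did not overlap, and both had means above the background level. The control mean, 4.83, was near that level and below the 99th percentile of the olfactory receptor probe sets, 5.09. The rise was 1.60-fold (limma log2 fold change 0.68 with standard error 0.11, adjusted p = 0.0424). It was close to both thresholds and passed with 1 of the 6 arrays left out, control replicate 1. The adjusted p was 0.146, 0.183 and 0.0666 when long-term EMT replicate 1, 2 or 3 was left out, 0.168 and 0.113 when control replicate 2 or 3 was, and 0.0346 when control replicate 1 was.

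**Figure D2:**
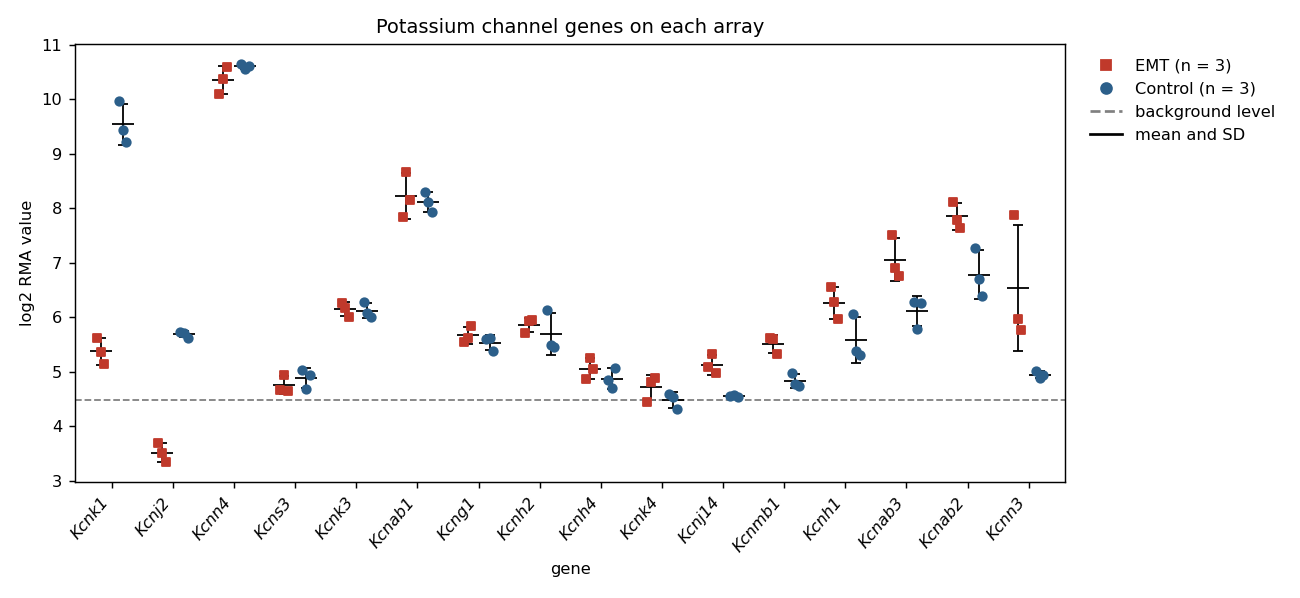
Log2 RMA values of 16 potassium channel genes on each array, in order of their log2 fold change, in long-term EMT cells (squares, n = 3) and control cells (circles, n = 3). Black marks are group means with their SD, with background (4.48) dashed. The groups are far apart for *Kcnk1* and *Kcnj2*, and in *Kcnn3* a single long-term EMT array, at 7.87, lies far above the other two.

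The start regions of the 3 genes that passed are shown as sequence only, since the arrays measured RNA and not these regions. Each runs from 250 bases before to 50 bases after the start of the gene (RefSeq, GRCm38.p6), and capitals mark matches to 2 of 3 motifs that were searched on both strands, the E-box CACCTG that Zeb and Snail proteins bind and the TEAD motif CATTCC. The third, the AP-1 motif TGANTCA, had no match in them. The windows lie at chr8:125994852-125995151 (*Kcnk1*), chr11:111065914-111066213 (*Kcnj2*) and chr11:33962763-33963062 (*Kcnmb1*), all on the plus strand.
Kcnk1: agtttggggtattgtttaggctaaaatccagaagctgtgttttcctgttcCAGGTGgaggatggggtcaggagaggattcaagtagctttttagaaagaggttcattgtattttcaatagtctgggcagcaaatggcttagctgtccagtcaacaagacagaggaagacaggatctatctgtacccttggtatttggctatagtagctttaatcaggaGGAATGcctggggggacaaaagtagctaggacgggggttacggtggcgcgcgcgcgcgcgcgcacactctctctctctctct
Kcnj2: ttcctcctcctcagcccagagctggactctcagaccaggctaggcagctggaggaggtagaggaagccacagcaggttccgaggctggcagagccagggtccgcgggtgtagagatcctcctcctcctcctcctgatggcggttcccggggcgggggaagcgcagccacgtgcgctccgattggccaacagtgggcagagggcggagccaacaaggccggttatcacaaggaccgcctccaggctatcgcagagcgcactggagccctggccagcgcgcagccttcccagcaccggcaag
Kcnmb1: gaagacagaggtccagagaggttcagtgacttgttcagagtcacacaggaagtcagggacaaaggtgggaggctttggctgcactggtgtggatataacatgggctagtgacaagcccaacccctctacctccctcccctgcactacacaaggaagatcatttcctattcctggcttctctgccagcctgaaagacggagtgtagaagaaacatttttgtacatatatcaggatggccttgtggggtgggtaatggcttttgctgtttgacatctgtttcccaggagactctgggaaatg
The window of *Kcnk1* held 1 E-box, as its reverse complement CAGGTG from position -200 relative to the start, and 1 TEAD motif, as GGAATG from position -32. Those of *Kcnj2* and *Kcnmb1* held no match to any of the 3 motifs. An E-box is common, with 20.2% of all 32851 windows of this length holding one, and 25.3% of the 91 windows of the 66 potassium channel genes in the table. The TEAD motif was in 14.7% of all windows and 15.4% of those of the family, and the AP-1 motif in 7.81% and 4.4%. The window of *Kcnj2* had a GC content of 66.7%, against 49.0% for *Kcnk1*, 49.7% for *Kcnmb1* and a median of 52.7% over all windows. A match is a description of the letters and not a site.

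None of the 5 annotated neighbours of these genes that were measured passed the test. *Kcnj16*, the inward rectifier gene next to *Kcnj2*, had a mean of 3.11 in long-term EMT cells and 3.11 in control cells, below the background level. The neighbours of *Kcnk1* had log2 fold changes of 0.16 (*Map3k21*) and 0.08 (*Slc35f3*). *Kcnip1*, within whose annotated span *Kcnmb1* lies, had a mean of 3.46 in long-term EMT cells and 3.53 in control cells, also below the background level.

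Among the 14 K2P genes *Kcnk1* fell and 13 did not pass. *Kcnk3*, an acid-sensitive K2P channel, had values of 6.26, 6.17 and 6.01 in long-term EMT arrays and 6.27, 6.08 and 6.0 in control arrays. These overlap throughout, and the difference of 0.03 had a 95% interval from -0.23 to 0.29, which leaves out any change near that of *Kcnk1*. *Kcnk4*, a K2P channel that opens on stretch of the membrane, averaged 4.71 ± 0.23 in long-term EMT cells and 4.48 ± 0.14 in control cells (SD, n = 3 each), near the background level. The other 11 had log2 fold changes between -0.13 and 0.18, and 6 of them were above the background level in at least 1 group, so that *Kcnk1* alone moved in its group by a fold above 1.5.

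Among the 15 inward rectifiers *Kcnj2* fell and 14 did not pass. *Kcnj14*, from the same subfamily as *Kcnj2*, had values of 5.08, 5.33 and 4.97 in long-term EMT arrays, against 4.55, 4.57 and 4.53 in control arrays. The groups did not overlap, with a difference opposite in sign to that of *Kcnj2*, but it passed neither threshold (log2 fold change 0.58, 95% interval 0.32 to 0.84, adjusted p = 0.0587 from limma). *Kcnj11*, the pore of the ATP-sensitive channel, was chosen after its values were seen as another that is above the background level, and had values of 5.59, 5.53 and 5.65 in long-term EMT arrays and 5.63, 5.50 and 5.36 in control arrays. The 13 inward rectifiers other than *Kcnj2* and *Kcnj14* had log2 fold changes between -0.26 and 0.17, and 4 of them were above the background level in at least 1 group.

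Of the 8 genes for calcium- or sodium-activated pores none passed at an adjusted p, and 1, *Kcnn3*, was higher at an unadjusted p. *Kcnn4* encodes the intermediate-conductance calcium-activated channel of blood cells and secretory epithelia. It had values of 10.09, 10.37 and 10.59 in long-term EMT arrays and 10.64, 10.55 and 10.61 in control arrays. The groups overlapped, and the log2 fold change of -0.25 had a 95% interval from -0.57 to 0.07 (adjusted p = 0.515 from limma). *Kcnn3*, a small-conductance channel gated by calcium through calmodulin, had values of 7.87, 5.96 and 5.77 in long-term EMT arrays, against 5.01, 4.88 and 4.94 in control arrays. All long-term EMT arrays were higher, but by very different amounts, and the log2 fold change of 1.59 had a standard error of 0.54 (adjusted p = 0.263 from limma). Without long-term EMT replicate 1 it was 0.92 with an adjusted p = 0.037, so that a smaller difference passed.

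*Kcnma1*, the pore to which the *Kcnmb1* product binds, had values of 4.20, 4.09 and 4.10 in long-term EMT arrays and 4.02, 4.04 and 3.99 in control arrays. Both groups were below the background level, so that its RNA was not detected above background in the cells in which *Kcnmb1* rose. *Lrrc26*, a gamma subunit of the same channel that lets it open without depolarization in epithelia, had values of 4.86, 5.29 and 4.96 in long-term EMT arrays, against 10.29, 8.40 and 7.27 in control arrays. The groups did not overlap, but the control arrays spread widely and *Lrrc26* did not pass (limma log2 fold change -3.62 with standard error 0.71, adjusted p = 0.0678). It passed without control replicate 1, at -2.80 (adjusted p = 0.0164), and without control replicate 3, at -4.31 (adjusted p = 0.0306). *Kcnma1* and *Lrrc26* were chosen as partners of *Kcnmb1* after their values were seen.

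**Figure D3:**
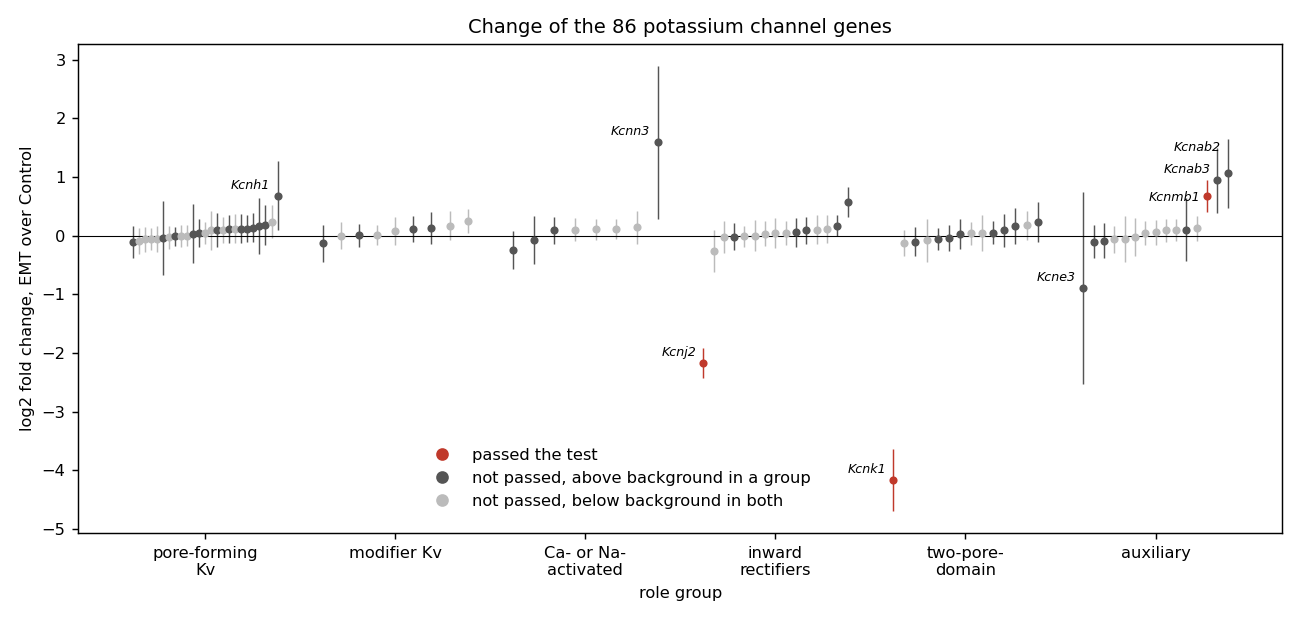
Log2 fold change (long-term EMT over control) of each of the 86 potassium channel genes with its 95% interval from limma, by role group and ordered by value within a group. The 3 genes that passed are red, and genes below the background level in both groups are light grey. Changes lie near 0 in every role group except for a few named genes, and the interval of *Kcne3*, from -2.52 to 0.75, is the widest of the 86.

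Of the 15 auxiliary subunits *Kcnmb1* rose and 14 did not pass, among which *Kcnab2* and *Kcnab3* were higher at an unadjusted p. The *Kcnab* genes encode the cytosolic beta subunits of Kv channels, which are related to aldo-keto reductases. *Kcnab2* had values of 8.12, 7.79 and 7.63 in long-term EMT arrays, against 7.26, 6.70 and 6.38 in control arrays, a limma log2 fold change of 1.07 with a standard error of 0.24 (adjusted p = 0.104). *Kcnab3* had 7.5, 6.90 and 6.75 in long-term EMT arrays, against 6.27, 5.79 and 6.26 in control arrays, a difference of 0.94 (standard error 0.23, adjusted p = 0.125). In both the groups did not overlap. Without control replicate 1, the highest of the controls for *Kcnab2*, its difference was 1.31 and passed (adjusted p = 0.0237), while *Kcnab3* passed in none of the 6 fits that left out 1 array. *Kcnab1*, the third of these genes, had values of 7.83, 8.67 and 8.15 in long-term EMT arrays and 8.30, 8.11 and 7.93 in control arrays. Its groups overlapped, with a difference of 0.10 and a 95% interval from -0.43 to 0.64.

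*Kcne3*, chosen after its values were seen, encodes a single-span subunit that keeps the *Kcnq1* channel open in epithelia. It had values of 4.94, 4.44 and 4.51 in long-term EMT arrays and 7.15, 4.98 and 4.42 in control arrays. Its difference was that of control replicate 1, the value being -0.89 on the log2 scale with all arrays (adjusted p = 0.677 from limma) and -0.07 without that array. *Kcnq1* itself, chosen in the same way, had 4.94, 5.31 and 5.30 in long-term EMT arrays and 5.74, 5.22 and 4.71 in control arrays, which overlap, with control replicate 1 again the highest. Its log2 fold change was -0.04 with all arrays and 0.22 without that array (adjusted p = 0.976 and 0.669 from limma), so that its sign depended on it. Across the 86 genes, 7 were more than 0.5 higher in control replicate 1 than the mean of the other controls, by 0.53 to 2.45, and 0 were more than 0.5 lower. Over all 35556 probe sets, counted at a larger difference of 1, this array was higher for 777 and lower for 577.

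Of the 25 pore-forming Kv genes none passed at an adjusted p, and 1, *Kcnh1*, was higher at an unadjusted p. *Kcnh1*, an ether-a-go-go channel gene known for its expression in tumors, had values of 6.55, 6.27 and 5.96 in long-term EMT arrays and 6.06, 5.38 and 5.30 in control arrays. The lowest long-term EMT array fell below control replicate 1, so that the groups overlapped (log2 fold change 0.68, 95% interval 0.09 to 1.27, adjusted p = 0.293 from limma). Without control replicate 1 the difference was 0.92 (adjusted p = 0.0633). *Kcnh2*, the cardiac channel gene of the same family, had 5.71, 5.92 and 5.95 in long-term EMT arrays and 6.13, 5.48 and 5.46 in control arrays, and *Kcnh4* had 4.86, 5.25 and 5.05 in long-term EMT arrays and 4.85, 4.69 and 5.07 in control arrays. Both overlapped between the groups. Without control replicate 1, the highest of the controls for *Kcnh2*, the log2 fold change of *Kcnh2* was 0.39, against 0.17 with all arrays, and did not pass (adjusted p = 0.139 from limma). The other 22 had log2 fold changes between -0.11 and 0.24, and 10 of them were above the background level in at least 1 group. *Kcnd3* had a log2 fold change of 0.04 on the probe set that was used, and its other probe set was below the background level in both groups.

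Of the 9 modifier Kv genes none passed at an adjusted p, and 0 reached a fold of 1.5. *Kcng1*, whose product joins Kv pores of another subfamily, had values of 5.54, 5.61 and 5.84 in long-term EMT arrays and 5.6, 5.62 and 5.38 in control arrays. *Kcns3*, a modifier of the same kind, averaged 4.75 ± 0.17 in long-term EMT cells and 4.88 ± 0.18 in control cells (SD, n = 3 each). In both, the groups overlapped and the 95% interval of the difference lay between -0.44 and 0.41. The other 7 had log2 fold changes between 0.00 and 0.26, and 2 of them were above the background level.

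**Figure D4:**
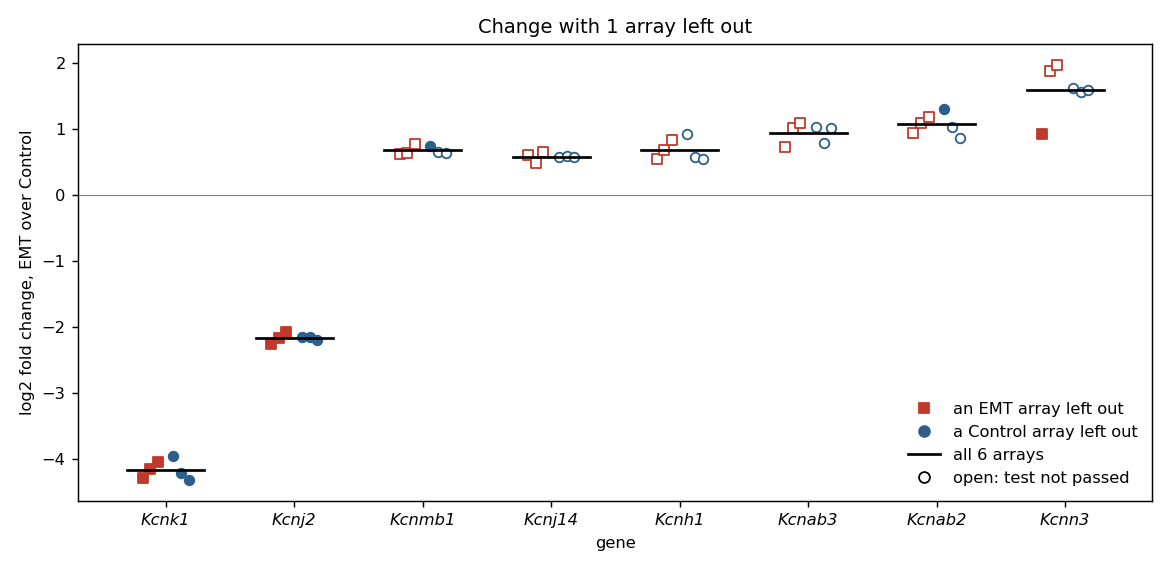
Log2 fold change (long-term EMT over control) of 8 potassium channel genes when 1 long-term EMT array (squares) or 1 control array (circles) is left out, with the value from all 6 arrays as a black bar; filled symbols passed the test. *Kcnk1* and *Kcnj2* passed in all 6 fits, *Kcnmb1*, *Kcnab2* and *Kcnn3* in 1 each and the other 3 genes in none.

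The other genes of potassium transport and of ion channels were read from lists. Of 24 genes for potassium pumps and cotransporters 1 rose, 1 fell and 22 did not pass, 4.17% in each direction beside 1.47% higher and 1.49% lower of all genes. *Slc24a3*, an exchanger of sodium for calcium and potassium, had a limma log2 fold change of -2.87 (adjusted p = 0.025), and *Slc12a5*, which exports potassium with chloride, of 0.92 (adjusted p = 0.0364). *Slc12a2*, chosen after its values were seen, is the sodium-potassium-chloride importer of secretory epithelia. It had values of 9.92, 9.71 and 9.72 in long-term EMT arrays, against 11.14, 10.59 and 10.34 in control arrays, which did not overlap and did not pass (-0.91, adjusted p = 0.103 from limma). Without control replicate 1 it passed at -0.68 (adjusted p = 0.0491). Of 19 partners of potassium channels outside the Kcn symbols none passed, and by the unadjusted p with the same fold 1 was lower (*Lrrc26*) and 0 higher.

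Of 24 other ion and water channel genes of epithelia, 2 rose (8.33%), 3 fell (12.5%) and 19 did not pass, beside the same 1.47% and 1.49% of all genes. The water channel genes *Aqp1* and *Aqp5* fell by 2.79 and 0.86 on the log2 scale and the calcium-permeable channel gene *Trpv4* fell by 1.21, while the stretch-gated channel gene *Piezo2* rose by 1.78 and the calcium-activated chloride channel gene *Ano1* by 0.64 (limma adjusted p between 0.0112 and 0.0353). *Ano1* was chosen after its values were seen, as the fifth gene of its list that passed. Of 25 voltage-gated sodium and calcium channel subunits, *Cacna1g* rose by 1.08 (adjusted p = 0.044 from limma) and 24 did not pass, which is 1 of 25 higher beside 1.47% of all genes. The median log2 fold change was 0.09 for the pumps and cotransporters, -0.03 for the partners, -0.05 for the epithelial channels and 0.03 for the sodium and calcium channels, beside 0.02 for all genes. These calls depended on single arrays. *Slc24a3*, *Aqp1*, *Aqp5* and *Trpv4* passed without control replicate 1 or 3 and not without any of the other 4 arrays, where their adjusted p was 0.0653 to 0.128. *Slc12a5*, *Ano1* and *Cacna1g* passed only without control replicate 1, with adjusted p = 0.0629 to 0.162 without any other array, and *Piezo2* did not pass in the absence of control replicate 2 or of long-term EMT replicate 2 or 3 (0.0621 to 0.0652).

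**Figure D5:**
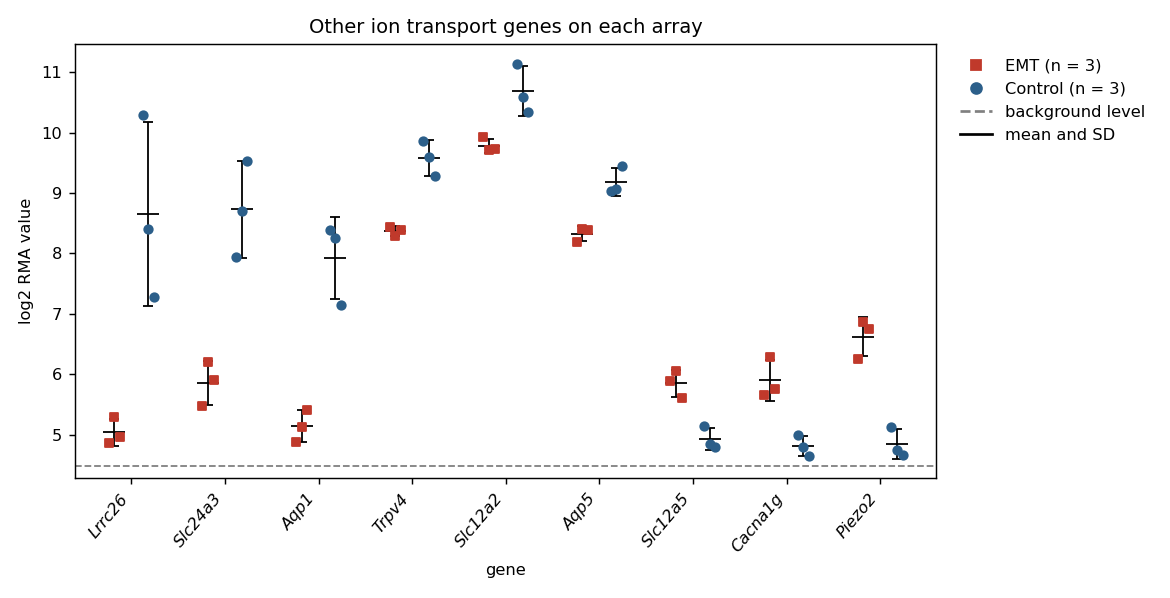
Log2 RMA values of 9 other ion and water transport genes on each array, in order of their log2 fold change, in long-term EMT cells (squares, n = 3) and control cells (circles, n = 3). Black marks are group means with their SD, with background (4.48) dashed. Shown are up to 4 genes of each list that passed, and *Lrrc26* and *Slc12a2*, which were chosen after their values were seen. The groups do not overlap for any of the 9, which follows in part from this choice. The control arrays of *Lrrc26* span 7.27 to 10.29.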

How the data were processed

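Expression was measured in 3 samples of long-term EMT cells and 3 of control cells, grouped by the sample titles, with 150 ng of RNA on each MoGene-1_1-st-v1 array. The authors computed the deposited log2 values by RMA (Robust Multi-array Average), run in Expression Console, whose version is not given in the sources used here. RMA corrects the background and normalizes between arrays, which leaves a floor and compresses changes of dim genes. The values, of 2 decimals, were used as deposited, and no scanner file was used here.

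All 35556 probe sets were fitted with limma 3.58.1 in R 4.3.3 (lmFit, eBayes) with Benjamini-Hochberg adjustment. The fit was also run on simulated data with independent noise on each array. Such data hold no array that stands apart, so that run does not test the effect of control replicate 1. Each p-value of a gene in the text is from it. The samples are called triplicate wells, so that a p-value reflects only how these wells vary, which may be technical, and the number of arrays limits the precision. Of the probe sets, 21218 have 1 symbol in the annotation used here, 1881 several and 12457 none. A probe set with several symbols was not used to name a gene, and 2 of these hold a potassium channel symbol.

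The members, lists, markers and motifs were chosen with earlier results of these data known. Members named are those that passed, those with an unadjusted p under 0.05, a fold above 1.5 and a mean above background, the 10 with the highest mean, and the 2 per role group with the largest change among those above background. From each other list up to 4 genes that passed are named, and any others, neighbouring genes and genes named only in a count included, were chosen after their values were seen. The alternatives were a Student t test, another variance prior, other fold thresholds, a replicate block, renormalization, a filter on dim probe sets, other probe set choices, other background levels and leaving out each array.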

Additional observations from a re-analysis of the deposited data

How the results depend on the processing

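*Kcnk1* and *Kcnj2* passed under all 17 alternatives, with log2 fold changes of -4.33 to -3.96 and -2.26 to -2.08. *Kcnmb1* kept its direction under all 17, and did not pass in 10 of them. The count of potassium channel genes that rose, 1 of 86, was 0 with the Student t test after Benjamini-Hochberg adjustment, with a trended and robust variance prior, above a fold of 2 and after quantile normalization, and 3 with the methods' t-test at an unadjusted p. It was 0 to 2 when 1 array was left out, and the count that fell was 2 under each alternative. The lists of other ion transport genes had 4 higher and 4 lower of 92, against 0 and 0 with the adjusted t-test, 7 lower at its unadjusted p and 2 higher above a fold of 2, and 0 to 4 higher and 0 to 6 lower when 1 array was left out. Over all probe sets 353 rose and 330 fell, against 43 and 26 with the adjusted t-test, 638 and 688 at its unadjusted p, 194 higher above a fold of 2, and 107 to 472 higher and 98 to 482 lower without 1 array. Above background were 42 members in long-term EMT and 39 in control cells, against 19 and 15 at the 99th percentile, and 40 to 42 and 36 to 41 without 1 array. The lowest probe set or the mean of all probe sets of a gene changed no call of a member.

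With the replicate number as a block, *Kcnmb1* did not pass (adjusted p = 0.0587), *Kcnab2* did (0.0347), and the lists had 1 higher and 2 lower. Whether the numbers pair the samples was not settled by the arrays. The deviations of same-numbered arrays from their group means correlated at 0.188, 0.02 and 0.249. For long-term EMT replicates 1 and 3 the same-numbered control array was the best match. Long-term EMT replicate 2 correlated best with control replicate 1 (0.062). The cause of these changes was not tested.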
